A study of Rattus norvegicus with 12 samples.

Results

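The genes described here make cholesterol and fatty acids and are known targets, regulators or partners of the sterol regulatory element-binding proteins (SREBPs), followed in rat hepatoma cells given α-lipoic acid (α-LA) or thapsigargin. The list held 40 genes, and a gene was measured where a probe carried its symbol in the platform annotation or, failing that, in the gene table published with the study. Probes were found for 34 of the 40 genes, out of 14942 distinct genes named on the array. Of the 18 enzymes of sterol synthesis 16 had a probe, of the 7 regulators and transporters 5, and of the 15 genes of fatty acid and glycerolipid synthesis 13. Mvk, Lss, Insig1, Acacb, Fasn and Mlxipl had no probe by this rule. Elovl6 and Thrsp stayed under a signal of 150 on all 12 arrays, the level taken as above background, so that 32 members could be tested.

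FaO is an established rat hepatoma line, and its RNA was measured on 12 Illumina bead arrays, which report the brightness of beads bound by labelled RNA. The treatment medium held 2% serum, less than the growth medium, on control and treated arrays alike. For each sample 3 wells were combined. The late α-LA group held the arrays of cells given 500 µM α-LA daily and harvested after 42, 48 and 72 h, and the early α-LA group those harvested after 18, 24 and 30 h. A further array came from cells harvested after 6 h of α-LA and entered no test. The thapsigargin group held 2 arrays of cells given a single dose of 0.1 µM of this blocker of the calcium pump of the endoplasmic reticulum (ER), with 18 and 24 h in the sample titles and 6 and 18 h in the protocol. The control group held 3 arrays, with no hour of harvest stated in the sources used here. Hours in α-LA were also hours in the medium with less serum, and no control array is known to match them. The part of time in low serum in the changes below was therefore not tested. α-LA is a sulfur-containing compound that serves as a cofactor of mitochondrial dehydrogenases. Time points stand in as replicates within the α-LA groups, and nothing in the labels says that the control arrays came from separate cultures, so a p-value reflects the scatter among these particular samples and that scatter may be technical.

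SREBPs are transcription factors that are made as membrane proteins of the ER. When ER sterols are plentiful the carrier Scap is held there by the Insig proteins, and when sterols fall Scap escorts SREBPs to the Golgi, where the proteases encoded by Mbtps1 and Mbtps2 release the part that enters the nucleus. The product of Srebf2 acts mainly on genes of cholesterol synthesis and that of Srebf1 mainly on genes of fatty acid synthesis, and both bind promoters together with the CCAAT-binding factor NF-Y. The liver is a main site of both pathways in the body.

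Hepatocyte markers were present and lower in treated cells. The summed signal of 6 measured hepatocyte genes, which include Alb and Ttr, ranged from 53231 to 75485 on the late and from 60402 to 79121 on the early α-LA arrays, against 91284 to 111432 on control arrays. On the thapsigargin arrays it was 41282 and 41442. Of these 6 genes, all but Ahsg were lower in each of the 3 treated groups than in control cells, and their part in the changes below was not tested. Of 12 measured markers of other liver cells (stellate, endothelial and bile duct cells and macrophages), only Cd14 and Sox9 were bright enough to be tested, and the sum of all 12 lay between 1477 and 1651 on every array, where the 5th percentile of all signals was 107. In such bulk samples fewer cells that express a gene and less RNA per cell cannot be told apart. Within each group the arrays correlated at 0.986 or higher across the 9193 probes tested, which is a correlation across genes and not across replicates. Ddit3, the ER stress factor CHOP, had signals of 8213, 7038 and 2741 on the late α-LA arrays, 3407, 4938 and 5164 on the early ones and 13284 and 13785 on the thapsigargin arrays, against 505, 680 and 604 on the control arrays.

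The promoters of the members give the sequence context in which SREBPs act. RefSeq windows on the GRCr8 rat assembly, from 250 bases before to 50 bases after the start of transcription, were at hand for 33 of the 40 members. The letters TCACNCCAC, a strict form of the sterol regulatory element in which N stands for any base, were found on either strand in 1.12% of all 33469 windows and in none of the 33 members. This says only that these letters do not occur in the windows. CCAAT, the letters bound by NF-Y, occurred on either strand in 37.5% of all windows and in 25 of the 33 members, with 12 of 15 sterol enzymes, 5 of 6 regulators and 8 of 12 genes of the fatty acid arm. The E-box CACGTG, which reads the same on both strands, occurred in 6.42% of all windows and in 4 of the 33 members. CCAAT was held by 11 of 15 members that were higher late than early in α-LA and by 8 of 12 tested members that were not. A letter match is a description and no evidence of binding.

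The 150 bases before the start of transcription are shown for 6 members whose changes stand out in the results, 4 of the sterol arm and 2 of the fatty acid arm, with capitals marking CCAAT or its reverse complement. They lie at chr19:67414975-67415124 on the minus strand (Mvd), chr2:176804817-176804966 on the minus strand (Fdps), chr2:53382154-53382303 on the plus strand (Hmgcs1), chr1:208444284-208444433 on the plus strand (Dhcr7), chr3:164464553-164464702 on the plus strand (Acss2) and chr1:253231732-253231881 on the minus strand (Scd). Dhcr7 and Scd hold no such match in this stretch.
Mvd: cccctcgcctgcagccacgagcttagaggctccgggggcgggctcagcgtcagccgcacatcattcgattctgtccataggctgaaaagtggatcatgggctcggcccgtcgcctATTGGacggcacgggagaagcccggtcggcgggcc
Fdps: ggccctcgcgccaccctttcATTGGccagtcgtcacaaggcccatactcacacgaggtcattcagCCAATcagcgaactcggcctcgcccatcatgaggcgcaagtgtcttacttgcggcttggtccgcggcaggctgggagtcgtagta
Hmgcs1: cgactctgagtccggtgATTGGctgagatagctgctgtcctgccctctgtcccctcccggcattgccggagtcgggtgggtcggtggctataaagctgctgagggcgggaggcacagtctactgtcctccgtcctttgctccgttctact
Dhcr7: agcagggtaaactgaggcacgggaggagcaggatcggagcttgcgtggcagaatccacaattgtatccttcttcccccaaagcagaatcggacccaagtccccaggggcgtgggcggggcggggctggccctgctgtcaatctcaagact
Acss2: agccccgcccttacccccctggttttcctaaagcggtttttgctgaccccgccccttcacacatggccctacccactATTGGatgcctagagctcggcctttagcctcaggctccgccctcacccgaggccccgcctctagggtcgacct
Scd: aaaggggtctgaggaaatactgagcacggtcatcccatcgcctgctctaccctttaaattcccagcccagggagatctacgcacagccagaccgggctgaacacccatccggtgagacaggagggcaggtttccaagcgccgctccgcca

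Most members were higher late in α-LA than in control cells, and the early arrays did not show this. After 42 to 72 h, 19 of the 32 members were higher and 4 lower than in control cells by limma at an adjusted p under 0.05, while 19.1% of the 9193 probes tested were higher and 17.7% lower. The median log2 change was 0.44 over the members, against 0.02 over all probes tested. After 18 to 30 h, 5 members were higher and 7 lower, beside 16.6% higher and 15.7% lower of all probes, with a median log2 change of -0.02 over the members. Without control 2, control 3, the 24 h array or the 30 h array, left out singly, 3 members were higher early in place of 5. The members lower early numbered 9 without the 24 h array and 11 with array weights, in place of 7.

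The late and early groups were also compared directly. Of the 32 members, 17 were higher late than early and 0 lower, at a median log2 difference of 0.44, while 6.43% of all probes were higher and 7.23% lower. No member was lower at an unadjusted p under 0.05 either. These 17 comprised 13 of the 16 sterol enzymes, 1 of the 5 regulators and 3 of the 11 genes of the fatty acid arm. Leaving out 1 array at a time gave 14 to 18 members. A slope over hours across the same 6 α-LA arrays, fitted with limma in place of the contrast of groups, called 0 members, with 19 higher and 0 lower at an unadjusted p under 0.05, and called 1 of the 9193 probes.

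**Figure D1:**
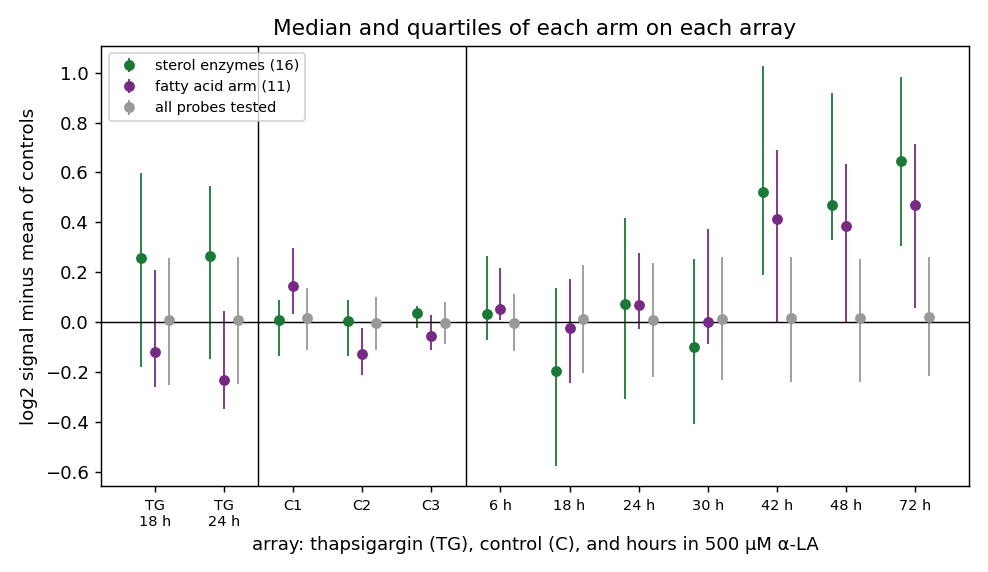
Median log2 difference from the mean of the controls (vertical axis) over the 16 sterol enzymes, the 11 genes of the fatty acid arm and all probes tested, on each array, with bars from the lower to the upper quartile of genes. Each control array is set against the other 2 controls. The sterol median is 0.52, 0.47 and 0.65 at 42, 48 and 72 h of α-LA and 0.26 and 0.27 on the thapsigargin arrays, where the fatty acid median is -0.12 and -0.23.

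On single arrays, the sterol enzymes had a median log2 difference from the controls of 0.03 at 6 h, -0.195 at 18 h, 0.07 at 24 h, -0.10 at 30 h, 0.52 at 42 h, 0.47 at 48 h and 0.65 at 72 h of α-LA. That of the fatty acid arm was 0.05, -0.025, 0.07, 0, 0.41, 0.39 and 0.47 at the same times. The control arrays, each set against the other controls, lay between 0.006 and 0.04 for the sterol enzymes and between -0.13 and 0.14 for the fatty acid arm. On all 3 late arrays both medians were above the range of the controls. The sterol median also lay outside that narrow range on the early and thapsigargin arrays, below it at 18 and 30 h and above it on the others, and at 6 h it lay within it. At 72 h, 14 of 16 sterol enzymes and 10 of 11 fatty acid genes stood above the control mean.

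The enzymes that lead to the sterol ring included both late increases and a decrease. Mvd, the mevalonate diphosphate decarboxylase, had signals of 1366, 1569 and 1269 after 42, 48 and 72 h and of 632, 825 and 605 after 18, 24 and 30 h of α-LA. In thapsigargin-treated cells its signals were 848 and 835, against 515, 581 and 562 in control cells. All late values lay above all others, and both thapsigargin values above the early and control values. Its log2 change against control was 1.34 late (SE 0.13, adjusted p = 1.21e-05 by limma, a 2.53-fold difference), and late exceeded early by 1.04 (SE 0.13, adjusted p = 0.00119).

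Fdps, the farnesyl diphosphate synthase, had signals of 3694, 3646 and 4107 late and 2018, 2589 and 2209 early in α-LA. Thapsigargin-treated cells gave 2777 and 2470, against 2086, 1458 and 1678 in control cells. The late values were apart from all others, while the early ones overlapped those of controls. Its log2 change was 1.15 late (SE 0.14, adjusted p = 6.2e-05), a 2.21-fold difference, and 0.39 early (adjusted p = 0.0474), a call that was lost when control 2, control 3, the 24 h or the 30 h array was left out.

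Hmgcs1, the cytosolic HMG-CoA synthase that feeds the pathway, went the other way. Its signals were 6950, 6458 and 5335 late and 3376, 3798 and 3565 early in α-LA, and 3610 and 3894 with thapsigargin, against 11101, 9549 and 9938 in control cells. Every treated array was below every control, the early α-LA and thapsigargin values overlapped, and the late values lay in between. The log2 change was -1.51 early (SE 0.11, adjusted p = 5e-06), a decrease of 2.85-fold, and -0.71 late (SE 0.11, adjusted p = 0.000486). Late exceeded early by 0.80 (adjusted p = 0.00192).

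Of the other enzymes before the ring, Acat2 and Idi1 were lower early and higher late than in control cells. Acat2, the cytosolic thiolase that makes acetoacetyl-CoA, had a log2 change of 0.42 late and -0.71 early, and late exceeded early by 1.13, the largest such difference among the members. Its late call was lost when control 2, control 3, the 42 h or the 48 h array was left out. Idi1, the isopentenyl diphosphate isomerase, had changes of 0.46 late and -0.435 early, the early one lost without control 2, control 3 or the 18 h array. Fdft1, the squalene synthase, was lower early, with a log2 change of -0.49 that was lost without control 2, and had a late change of 0.11 that did not pass. Late exceeded early by 0.90 for Idi1 and 0.60 for Fdft1. Sqle, the squalene epoxidase, was 0.94 higher late on the log2 scale, with an early change of 0.24 that did not pass, and Pmvk, the phosphomevalonate kinase, 0.54 higher late.

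**Figure D2:**
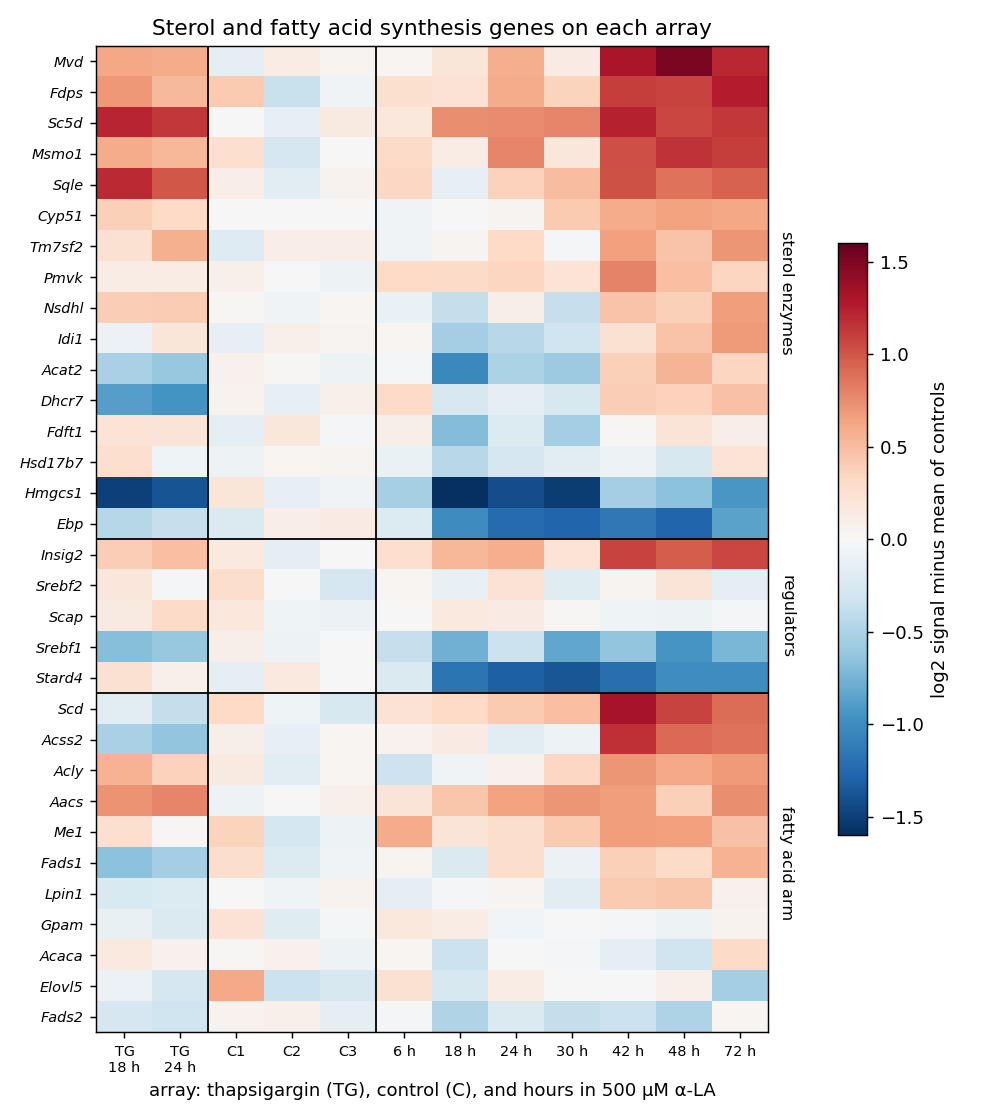
Log2 signal minus the mean of the 3 controls (colour) for the 32 tested members (rows, grouped by role and ordered by their late change) on the 12 arrays (columns). Most sterol enzymes are red from 42 h on, whereas Hmgcs1, Ebp, Srebf1 and Stard4 are blue on all α-LA arrays from 18 h on.

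Among the enzymes that shape the ring, Sc5d, the sterol desaturase, was the one called higher in the early group. Its signals were 1356, 1210 and 1269 late and 966, 974 and 995 early in α-LA. With thapsigargin they were 1342 and 1262, against 577, 542 and 615 in control cells. All 8 treated arrays from 18 h on were above all controls, and late and thapsigargin values overlapped. Against control, its log2 change was 1.15 late (SE 0.09, adjusted p = 3e-06), 0.76 early (adjusted p = 8.69e-05) and 1.17 with thapsigargin (adjusted p = 1.6e-06).

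Dhcr7, the reductase of the last step of one branch to cholesterol, had signals of 1908, 1870 and 2003 late and 1216, 1311 and 1219 early in α-LA. Thapsigargin-treated cells gave 787 and 747, against 1487, 1364 and 1505 in control cells. The late arrays lay above the controls, and the thapsigargin arrays below every other array. Its log2 change came to 0.41 late (SE 0.09, adjusted p = 0.00327) and -0.92 with thapsigargin (SE 0.09, adjusted p = 7.82e-06). The early change of -0.22 did not pass (adjusted p = 0.0804), although the groups did not overlap.

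Ebp, the isomerase that moves a double bond of the ring, had signals of 1322, 1219 and 1619 late and 1458, 1247 and 1214 early in α-LA. Cells given thapsigargin had signals of 2145 and 2275, against 2633, 3072 and 3120 in control cells. Late and early values overlapped and lay below the thapsigargin values, which lay below the controls. The log2 change was -1.09 late (SE 0.13, adjusted p = 4.62e-05), -1.17 early (adjusted p = 4.97e-05) and -0.41 with thapsigargin (adjusted p = 0.028), and the last call was lost without control 2, control 3 or either thapsigargin array.

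Of the remaining ring enzymes, Msmo1, a sterol methyl oxidase, was 1.10 higher late on the log2 scale, Cyp51, the lanosterol demethylase, 0.62, Tm7sf2, a sterol reductase, 0.61 and Nsdhl, a sterol dehydrogenase, 0.50. None of these passed early, and late exceeded early by 0.74 for Msmo1, 0.46 for Cyp51, 0.50 for Tm7sf2 and 0.72 for Nsdhl. The call of Cyp51 was lost without the 18, 24, 42 or 48 h array, that of Tm7sf2 without the 18, 30 or 42 h array and that of Sc5d (0.38) without the 42 h array. A dimmer probe of Tm7sf2 had a late minus early difference of 0.28 that did not pass (adjusted p = 0.288). Hsd17b7, a ketosteroid reductase of the same pathway, passed in none of the 6 comparisons, with -0.04 late and -0.29 early.

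The 5 measured regulators did not move as a group. Late in α-LA 1 was higher and 2 were lower than in control cells, and the same counts held early. The shares of all probes tested were 19.1% higher and 17.7% lower late, and 16.6% and 15.7% early. Insig2, which retains Scap in the ER, had signals of 2111, 1939 and 2080 late and 1441, 1485 and 1159 early in α-LA. With thapsigargin they were 1305 and 1385, against 1071, 924 and 994 in control cells. All treated arrays from 18 h on lay above the controls, and the late ones above all others. Against control, its log2 change was 1.04 late (SE 0.11, adjusted p = 2.67e-05), 0.445 early (adjusted p = 0.00981) and 0.435 with thapsigargin (adjusted p = 0.0108), the last being lost without the 24 h thapsigargin array.

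Srebf1, which encodes the SREBP of the fatty acid arm, had signals of 664, 537 and 618 late and 604, 809 and 578 early in α-LA, and of 643 and 680 with thapsigargin, against 1076, 991 and 1027 in control cells. Every treated array was below every control, and the 3 treated groups overlapped. Its log2 change came to -0.77 late (SE 0.13, adjusted p = 0.000768), -0.65 early (adjusted p = 0.00288) and -0.64 with thapsigargin (adjusted p = 0.00275). Srebf2, which encodes the SREBP of the sterol arm, lay between 149 and 199 on all 12 arrays, close to the level taken as above background, and passed in no comparison. Scap had signals of 1039, 1039 and 1076 late and 1215, 1200 and 1107 early in α-LA, and of 1214 and 1357 with thapsigargin, against 1180, 1063 and 1046 in control cells. Its values overlapped those of controls in both α-LA groups.

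Stard4, a cytosolic sterol carrier that SREBPs are known to induce, had signals of 171, 198 and 198 late and 176, 160 and 152 early in α-LA. Thapsigargin-treated cells gave 468 and 415, against 369, 424 and 392 in control cells. The α-LA values from 18 h on were far below all others, and thapsigargin and control values overlapped. The log2 change was -1.06 late (SE 0.10, adjusted p = 1.19e-05) and -1.28 early (SE 0.10, adjusted p = 7.01e-06). With thapsigargin the change was 0.16 (SE 0.11, adjusted p = 0.294). With the floor of the signals taken as background, signals this close to 150 hold a large part of it, which makes log2 changes smaller.

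In the fatty acid arm, 6 of the 11 tested genes were higher late and 0 lower than in control cells, and 2 were higher early and 0 lower. The median log2 change was 0.415 late and -0.015 early, against 0.52 and -0.05 for the sterol enzymes, of which 12 of 16 were higher and 2 lower late, and 2 higher and 5 lower early. Of all probes tested, 19.1% were higher and 17.7% lower late, and 16.6% higher and 15.7% lower early. The early shares of higher genes in both arms were thus close to or below that of all probes. Whether the arms differ was not tested. Without control 2 and without control 1 the late median of the fatty acid arm was 0.34 and 0.51.

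Scd, a stearoyl-CoA desaturase that makes monounsaturated fatty acids, had signals of 4508, 3838 and 3379 late and 2253, 2430 and 2523 early in α-LA. Cells given thapsigargin had signals of 1611 and 1391, against 2098, 1759 and 1614 in control cells. The late values were above all others, the early values above all controls, and the thapsigargin values below all controls. Against control, its log2 change was 1.10 late (SE 0.13, adjusted p = 4.95e-05), a 2.14-fold difference, and 0.405 early (adjusted p = 0.0302), the early call being lost without control 2, control 3, the 24 h or the 30 h array. The thapsigargin change of -0.28 did not pass (adjusted p = 0.145). Scd2, another stearoyl-CoA desaturase gene and outside the members, went the other way in α-LA. Its signals were 11439, 11351 and 11123 late and 9274, 8948 and 8173 early, against 17322, 12963 and 14665 in control cells. With thapsigargin they were 9876 and 9322. The log2 change of Scd2 was -0.40 late (adjusted p = 0.0151 by limma) and -0.76 early (adjusted p = 0.000347).

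Acss2, the cytosolic acetyl-CoA synthetase that salvages acetate, had signals of 609, 509 and 495 late and 298, 241 and 257 early in α-LA. With thapsigargin they were 190 and 176, against 285, 257 and 277 in control cells. Late values were above and thapsigargin values below all others, and early values overlapped the controls. Its log2 change came to 0.98 late (SE 0.11, adjusted p = 4.87e-05), -0.04 early (adjusted p = 0.814) and -0.57 with thapsigargin (adjusted p = 0.0022).

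Acly, the citrate lyase that supplies cytosolic acetyl-CoA, had signals of 2401, 2249 and 2367 late and 1410, 1543 and 1850 early in α-LA, and of 2160 and 1908 with thapsigargin, against 1573, 1361 and 1490 in control cells. Late values were the highest, and early values overlapped the controls. The log2 change was 0.67 late (SE 0.11, adjusted p = 0.000636) and 0.46 with thapsigargin (adjusted p = 0.00873), the call with thapsigargin being lost without the 18 h thapsigargin array. Me1, the malic enzyme that makes NADPH, had signals of 1482, 1476 and 1298 late and 1084, 1137 and 1247 early in α-LA. Thapsigargin-treated cells gave 1128 and 950, against 1106, 823 and 902 in control cells. Only the late values were apart from the controls, with a log2 change of 0.60 (SE 0.12, adjusted p = 0.00217).

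Aacs, an acetoacetyl-CoA synthetase that channels ketone bodies into lipid synthesis, had signals of 260, 213 and 273 late and 222, 255 and 267 early in α-LA. Cells given thapsigargin had signals of 268 and 280, against 157, 163 and 170 in control cells. All treated arrays from 18 h on lay above the controls and the late and early values overlapped. Against control, its log2 change was 0.60 late and 0.60 early (SE 0.11 each, adjusted p = 0.00148 and 0.00187) and 0.75 with thapsigargin (SE 0.12, adjusted p = 0.000297).

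Fads1, a desaturase of polyunsaturated fatty acids, had signals of 1669, 1583 and 1872 late and 1088, 1550 and 1200 early in α-LA. With thapsigargin they were 811 and 879, against 1455, 1152 and 1246 in control cells. Late values were above and thapsigargin values below all others, and early values overlapped the controls. Its log2 change came to 0.415 late (SE 0.14, adjusted p = 0.0352), lost without control 2, control 3, the 42 h or the 72 h array, and -0.60 with thapsigargin (SE 0.15, adjusted p = 0.00616), lost without the 18 h thapsigargin array.

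In the fatty acid arm, late exceeded early past the test by 1.02 for Acss2, 0.69 for Scd and 0.555 for Acly. Fads1 (0.43, adjusted p = 0.0635), Lpin1 (0.36, adjusted p = 0.0583) and Me1 (0.295, adjusted p = 0.126) did not pass, although their late values lay above all early ones. Lpin1, a phosphatidate phosphatase, had a late change of 0.31 that did not pass (adjusted p = 0.0529), while a dimmer probe of the same gene did (0.39, adjusted p = 0.0125). Acaca, the acetyl-CoA carboxylase, Elovl5, an elongase, Fads2, a desaturase, and Gpam, an acyltransferase of glycerolipid synthesis, passed in none of the 6 comparisons. Acaca stayed between 133 and 210 and Fads2 between 145 and 212 on all arrays, near background.

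**Figure D3:**
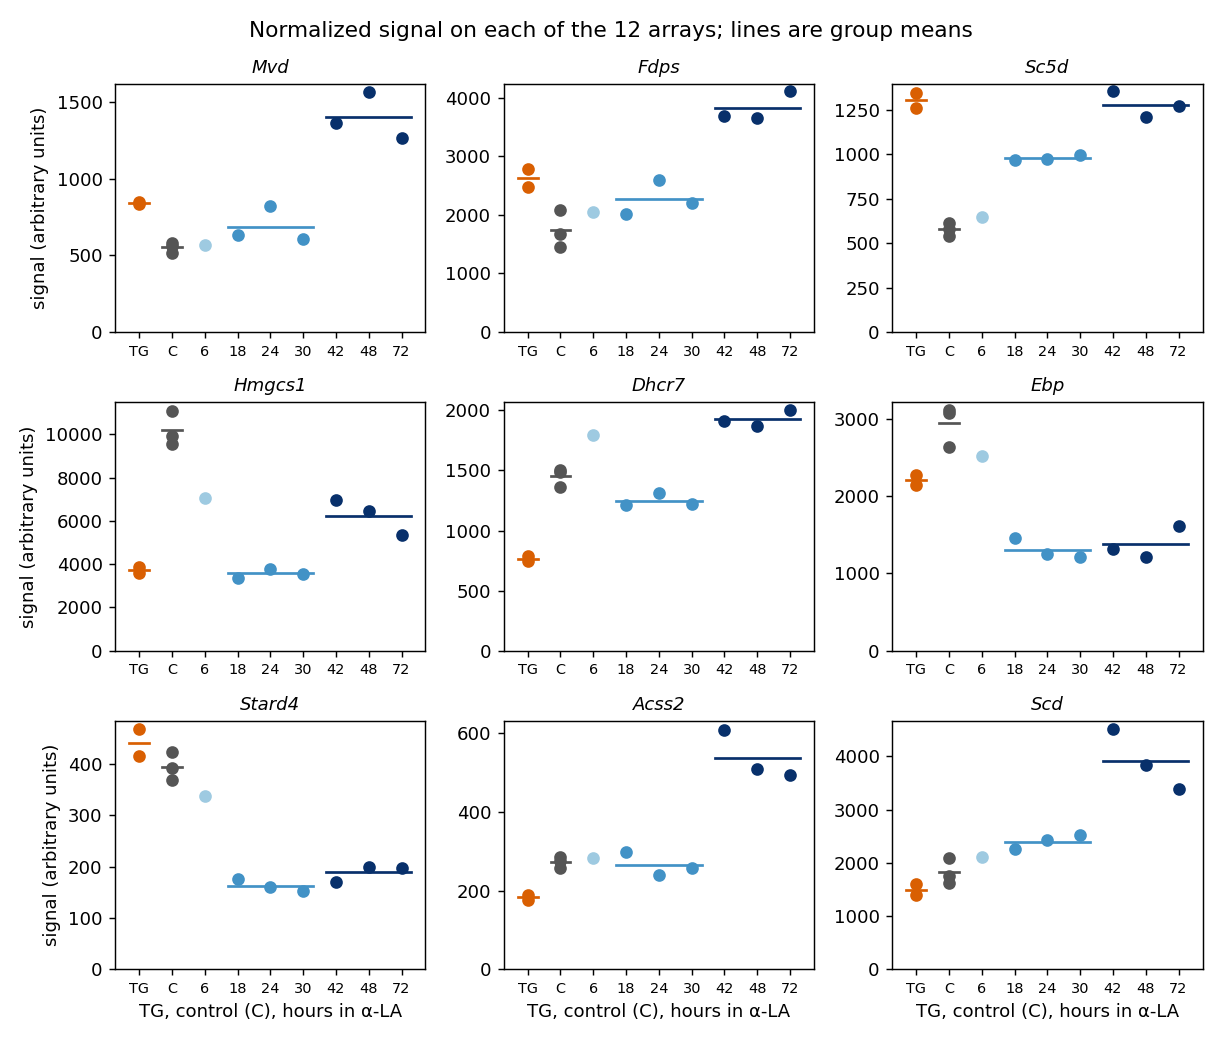
Normalized signal (vertical axes, arbitrary units from 0) of 9 members on each of the 12 arrays, with thapsigargin (TG), control (C) and the hours in α-LA on the horizontal axes and lines at group means. Mvd, Fdps, Acss2 and Scd have their highest values on the late α-LA arrays, Hmgcs1 and Ebp on the control arrays, and Dhcr7 and Acss2 their lowest on the thapsigargin arrays.

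The 6 h array of α-LA has no replicate check. The largest differences from the control mean among the members were a log2 value of 0.59 for Me1 (signal 1410), -0.53 for Hmgcs1 (7046), -0.37 for Srebf1 (797), -0.33 for Acly (1171) and 0.33 for Sqle (1062). All 5 signals were outside the range of the 3 controls. These genes were picked by the size of that same difference, so this is no separate support. For Hmgcs1 and Srebf1 the 6 h value lay between the controls and the 18 h value.

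Against control cells, with thapsigargin 11 of the 32 members were higher and 7 lower, beside 19.2% higher and 18.7% lower of all probes tested, and the median log2 change was 0.11 over the members. Of the 16 sterol enzymes 8 were higher and 4 lower, with a median of 0.28, and of the 11 fatty acid genes 2 were higher and 2 lower, with a median of -0.18. The shares called in the fatty acid arm were close to those of all probes. With either thapsigargin array left out 6 members were higher in place of 11, the remaining array being assumed to vary like the other groups.

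The increases with thapsigargin in the sterol arm were led by Sc5d and by Sqle, whose log2 change was 1.09 (SE 0.16, adjusted p = 0.00012). Mvd followed with 0.61, Fdps with 0.605, Msmo1 with 0.56, Tm7sf2 with 0.41, Nsdhl with 0.395 and Cyp51 with 0.35. The calls of Cyp51 and Nsdhl were lost when any one thapsigargin or control array was left out, that of Fdps without the 18 h thapsigargin array, that of Msmo1 without either thapsigargin array or control 2, and that of Tm7sf2 without the 24 h thapsigargin array or control 1. The decreases were those of Hmgcs1 with -1.44 (SE 0.12, adjusted p = 2e-06), Dhcr7, Acat2 with -0.56 and Ebp. The call of Acat2 was lost without the 24 h thapsigargin array.

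**Figure D4:**
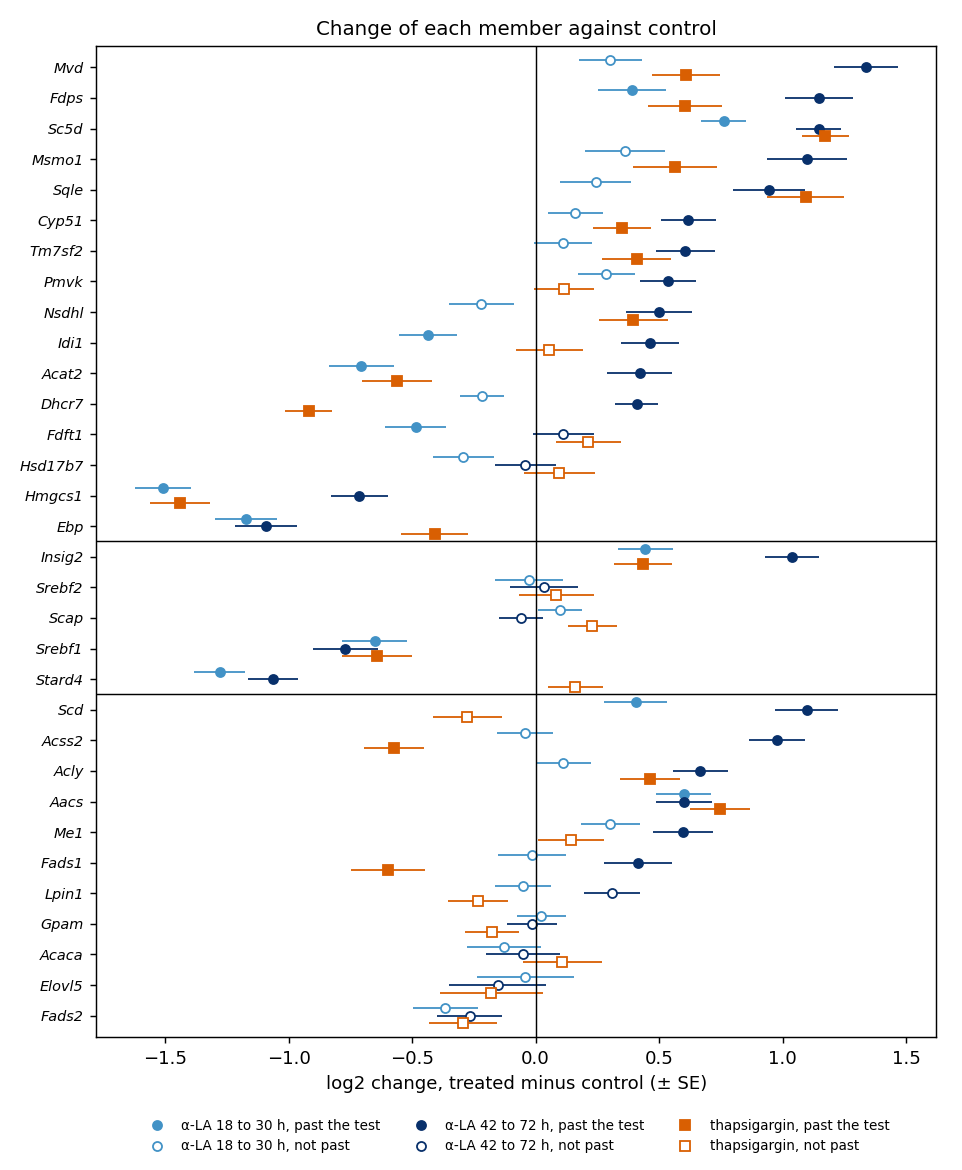
Log2 change against control (horizontal axis, with standard error) of the 32 tested members after 18 to 30 h of α-LA, after 42 to 72 h of α-LA and with thapsigargin. Filled symbols passed limma's test at an adjusted p under 0.05. Dhcr7, Acat2, Acss2 and Fads1 lie right of 0 late in α-LA and left of 0 with thapsigargin.

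The α-LA and thapsigargin comparisons share their control arrays, so the calls are only set side by side here. With thapsigargin, 19.2% of all probes tested were higher and 18.7% lower. The overlap of calls over all probes was not counted, so the overlaps below cannot be set against it. Of the 12 sterol enzymes higher late in α-LA, 8 were also higher and 2, Dhcr7 and Acat2, were lower with thapsigargin. Of the 6 fatty acid genes higher late in α-LA, Acly and Aacs were also higher, and Acss2 and Fads1 were lower with thapsigargin. Hmgcs1, Ebp and Srebf1 were lower in both, and Insig2 was higher in both.

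At the hours that the titles give for both, the sterol median against control was -0.195 at 18 h and 0.07 at 24 h of α-LA, and 0.26 and 0.27 at 18 and 24 h of thapsigargin. That of the fatty acid arm was -0.025 and 0.07 in α-LA, and -0.12 and -0.23 with thapsigargin. In the direct contrast of the agents, early α-LA exceeded thapsigargin in 4 members and fell below it in 8, while 13.9% of all probes were higher and 13.6% lower. By arm these were 1 sterol enzyme higher and 6 lower, and 3 fatty acid genes higher and 1 lower, with median log2 differences of -0.30 and 0.16.

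Early α-LA was lower than thapsigargin for Stard4 by a log2 difference of -1.44 (SE 0.11, adjusted p = 3.17e-06), Sqle by -0.85, Ebp by -0.76, Fdft1 by -0.70, Nsdhl by -0.61, Idi1 by -0.49, Sc5d by -0.41 and Acly by -0.35. It was higher for Dhcr7 by 0.70 (SE 0.09, adjusted p = 0.00017), Scd by 0.68, Fads1 by 0.58 and Acss2 by 0.53. Without the 24 h thapsigargin array 2 members were higher in place of 4, with the calls of Scd and Acss2 lost, and without the 18 h array that of Fads1 was lost. The call of Acly was lost without either thapsigargin array, the 18 h or the 24 h α-LA array, that of Idi1 without the 24 h thapsigargin or the 18 h α-LA array and that of Sc5d without the 18 h thapsigargin array. For Hmgcs1, Srebf1 and Insig2 the differences were -0.07, -0.01 and 0.01 (SE 0.12, 0.14 and 0.12), and none passed.

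Late α-LA, whose hours differ from those of thapsigargin, exceeded it in 14 members and fell below it in 3, beside 12.2% higher and 12.9% lower of all probes. These were 8 sterol enzymes, 5 fatty acid genes and 1 regulator higher, and 1 sterol enzyme and 2 regulators lower. The largest differences were 1.55 for Acss2 (SE 0.12, adjusted p = 6.2e-06), 1.375 for Scd (adjusted p = 3.93e-05), 1.33 for Dhcr7 (SE 0.09, adjusted p = 2.24e-06), 1.01 for Fads1 and 0.98 for Acat2. Mvd and Hmgcs1 followed with 0.73 each, Insig2 with 0.60, Lpin1 and Fdps with 0.54, Msmo1 with 0.535, Me1 with 0.45, Pmvk with 0.42 and Idi1 with 0.41.

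Those lower late in α-LA than with thapsigargin were Stard4 with -1.22, Ebp with -0.68 and Scap with -0.29 (adjusted p = 0.0487). Leaving out the 18 h or the 24 h thapsigargin array gave 8 and 9 members higher in place of 14. The calls of Msmo1 and Scap were lost when any one of the 5 arrays compared was left out. Those of Fdps, Idi1, Me1 and Pmvk were lost without either thapsigargin array, and that of Lpin1 without the 18 h array. Leaving out single α-LA arrays also ended the calls of Idi1 (48 or 72 h), Me1 (42 or 48 h) and Pmvk (42 h). Sc5d and Sqle, which thapsigargin raised most, had late differences of -0.03 and -0.15 that did not pass.

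**Figure D5:**
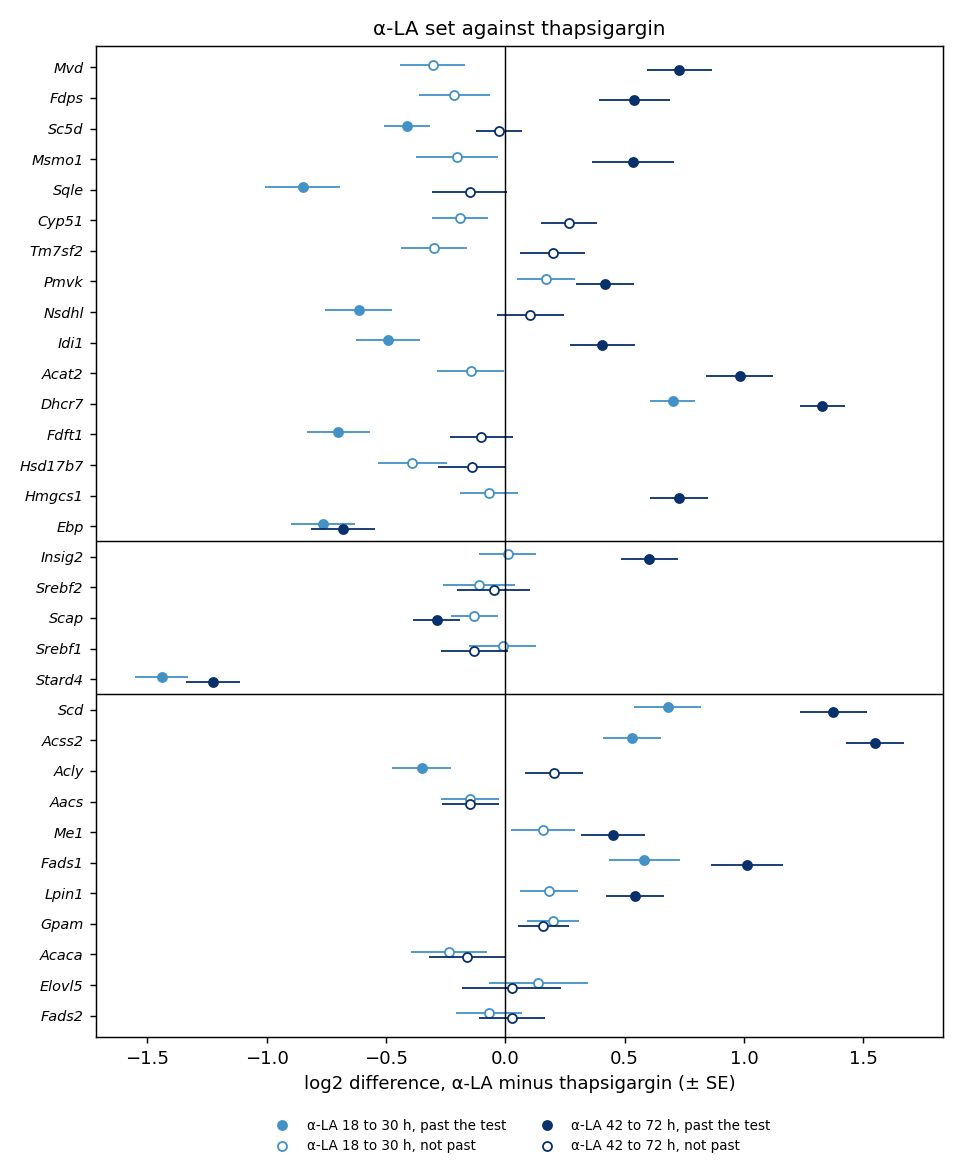
Log2 difference of α-LA minus thapsigargin (horizontal axis, with standard error) for the 32 tested members, after 18 to 30 h and after 42 to 72 h of α-LA. Filled symbols passed limma's test at an adjusted p under 0.05. Stard4 lies at -1.44 and -1.22, and Acss2 at 0.53 and 1.55.

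Genes that work beside the members were described through 5 lists with 81 genes, of which 60 were tested. Of these 60, 10 were higher and 15 lower late than in control cells, beside 19.1% and 17.7% of all probes tested. Between late and early, 7 were higher and 2 lower, beside 6.43% and 7.23% of all probes. Among 10 tested genes of SREBP processing and its partners, 0 were higher and 2 lower late than in control cells, and 0 passed in either direction between late and early. Mbtps1, one of the proteases that cut SREBPs, had a log2 change of -0.715 late (SE 0.11, adjusted p = 0.000291), -0.88 early and -1.13 with thapsigargin. Mbtps2, the other protease, was 0.56 higher early and 0.32 higher with thapsigargin.

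Among 7 tested sterol synthesis genes outside the members, 2 were higher and 1 lower late than in control cells. Late against early, 3 were higher and 0 lower. For all probes tested the shares were 19.1% higher and 17.7% lower late, and 6.43% and 7.23% late against early. Erg28, which tethers enzymes of sterol demethylation in yeast, had a late minus early log2 difference of 0.69 and an early change of -0.69. Among 15 genes of sterol uptake, transport and sensing, 2 were higher and 4 lower late. Npc2, which carries cholesterol out of lysosomes, was 0.75 higher late and 1.20 higher with thapsigargin. Tmem97, a membrane protein known to bind Npc1, the partner of Npc2, was lower late, at -0.98. A dimmer probe of Tmem97 was also lower late, at -0.39 (adjusted p = 0.0375 by limma).

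Among 19 tested genes of fatty acid elongation, activation and esterification, 4 were higher and 6 lower late than in control cells. Of all probes tested, 19.1% were higher and 17.7% lower. Plin2, the coat protein of lipid droplets, had a log2 change of 1.56 late (SE 0.10, adjusted p = 7.98e-07) and 1.82 early (SE 0.10, adjusted p = 6.02e-07), and exceeded thapsigargin by 1.49 and 1.74. Acsl1, which activates fatty acids, had 1.39 late and 0.90 early, and Dgat2, which makes triglycerides, 0.87 late, 0.86 early and 1.03 with thapsigargin. Hacd2, a dehydratase of fatty acid elongation, was lower late, at -1.06, and higher with thapsigargin, at 1.20.

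Among 9 tested genes of citrate export, NADPH supply and AMP-activated protein kinase, 2 were higher and 2 lower late than in control cells. Both shares were near those of all probes tested, 19.1% higher and 17.7% lower. Slc25a1, the mitochondrial citrate carrier, was 0.49 higher late and 0.57 higher early. Idh1, the cytosolic isocitrate dehydrogenase, was lower early, at -0.985, and 1.03 higher late than early. Mid1ip1, which promotes polymerisation of acetyl-CoA carboxylase, was lower in all 3 treated groups, at -0.83 late, -0.68 early and -0.59 with thapsigargin.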

How the data were processed

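Total RNA of FaO cells was hybridised to Illumina RatRef arrays. The authors read the arrays with BeadStudio, whose version the submitters' processing notes give as 3.0.19.0, and quantile-normalized the signals. The deposited intensity table holds these normalized signals on a linear scale for 22523 probes and 12 arrays, from 88.3 to 55971, and any background subtraction by them is not given in the sources used. In another deposited table, 24 columns could not be matched to samples by name and were left out, with the detection p-values they held. Platform annotation named 13793 probes, 1683 were named from the gene table of the study, and 7047 had no symbol. Of the 36 member probes 34 were named from the annotation and 2, Hmgcs1 and the brighter probe of Lpin1, from the gene table.

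Probes with a signal of 150 or more on at least 3 arrays were tested on log2 signals with limma 3.58.1 (lmFit and eBayes) in R 4.3.3, after the script was tested on simulated data, with Benjamini-Hochberg adjustment over all 9193 and calls at 0.05. A fit of 9 arrays held the control, early and late groups, and comparisons with thapsigargin came from a fit of 11 arrays in 4 groups. A gene with several probes was represented by the brightest. The number of arrays limits the precision. Promoter windows are those of RefSeq on GRCr8, and 7 members had none. The members and lists were chosen with earlier results of these data known.

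All members were accounted for. Values on every array were printed for up to 6 members per group with the largest change past the threshold, Srebf2 by its range. Related genes were named where they passed with a large change, up to 4 per list and comparison, and Scd2 was given beside Scd. Alternatives were other filters on low signals, subtraction of the 5th percentile as background, eBayes with trend and robust settings, array weights, fits of only the groups compared, a threshold of 0.01, the mean of all probes of a gene, pooled α-LA groups, a slope over hours and leaving out each array.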

Additional observations from a re-analysis of the deposited data

Results flagged for a closer look

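For 17 members the late change against the controls differed from the early one, by the direct limma test of late against early α-LA at an adjusted p under 0.05. Each difference was positive. The log2 differences, late minus early, were 1.13 for Acat2, 1.04 for Mvd, 0.90 for Idi1, 0.80 for Hmgcs1, 0.75 for Fdps, 0.74 for Msmo1, 0.72 for Nsdhl, 0.70 for Sqle, 0.63 for Dhcr7, 0.60 for Fdft1, 0.50 for Tm7sf2, 0.46 for Cyp51 and 0.38 for Sc5d among the sterol enzymes. They were 1.02 for Acss2, 0.69 for Scd and 0.555 for Acly in the fatty acid arm, and 0.59 for Insig2 among the regulators. Each value compares 3 arrays of different hours with 3 others, so the hour and the group cannot be told apart. A slope over hours on the same 6 arrays called 0 of these members by limma, with 19 of the 32 tested members higher at an unadjusted p under 0.05.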

How the results depend on the processing

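Signals in the deposited table do not fall below 88.3, a floor taken here as background. On that reading, changes of members near 150, such as Srebf2, Acaca, Fads2, Stard4 and Cyp51, are compressed. Single time points have no replicate, and a thapsigargin array left alone was assumed to vary like the other groups. Pooling the early with the late arrays against controls gave 8 members higher in place of 19 (5 with the 6 h array added), medians of 0.25 (0.21) for the sterol enzymes and 0.20 (0.18) for the fatty acid arm, and turned the late change of Acat2 to -0.14 (-0.13), because these groups hold the early arrays. A slope over hours in place of late against early, tested with limma, called 0 members (19 higher and 0 lower at an unadjusted p under 0.05), and 1 of all 9193 probes.

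Subtracting the 5th percentile of the signals with a floor of 16 gave a sterol median of 0.72 late against control, 0.38 with thapsigargin and 0.47 late against thapsigargin, a fatty acid median of 0.59 late against control and -0.295 with thapsigargin, and 3 members higher early. Without a filter the fatty acid median was 0.31 late against control and 0.18 late against early. With a signal of 150 on every array it was 0.60 late against control, 0.36 late against early and 0.45 late against thapsigargin, and with a signal of 300 on at least 3 arrays 0.60, 0.43 and 0.45 in these comparisons. That signal also gave a sterol median of 0.30 with thapsigargin. At a threshold of 0.01, 3 members were higher early, 6 with thapsigargin and 9 late against thapsigargin. Array weights gave 11 members lower early in place of 7. The causes of these shifts were not tested.

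Leaving out 1 array at a time, members higher numbered 17 to 19 and lower 4 to 5 late against control, 3 to 6 and 5 to 9 early against control, 14 to 18 and 0 late against early, 6 to 9 and 5 to 7 with thapsigargin, 2 to 4 and 6 to 10 early against thapsigargin, and 8 to 12 and 2 late against thapsigargin. The sterol median ranged from 0.51 to 0.56 late and -0.12 to 0.005 early against control, 0.56 to 0.75 late against early, 0.25 to 0.31 with thapsigargin, -0.41 to -0.26 early and 0.28 to 0.39 late against thapsigargin. The fatty acid median ranged from 0.34 to 0.51 late and -0.069 to 0.10 early against control, 0.25 to 0.36 late against early, -0.25 to -0.10 with thapsigargin, 0.055 to 0.22 early and 0.11 to 0.29 late against thapsigargin.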
